A study of Mus musculus with 42 samples.

Results

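Both intermittent fasting regimens of the study were compared directly with each other in the cerebellum. IF16 mice were fasted for 16 h every day, with food given at 7 am and taken away at 3 pm. EOD mice were fasted for 24 h on alternate days, each starting at 7 am after a day with food. The comparison rested on the 5 RNA-seq libraries of each regimen taken at the end of the regimen, 10 of the 42 samples of the series and 10 of its 30 RNA-seq libraries. All were from male C57BL/6 mice on a standard diet that entered the regimen at 3 months of age and stayed on it for 3 months. The 5 AL libraries, from mice of the same age fed ad libitum, gave the unfasted level. Further mice were returned to ad libitum food for 2 months after the regimen (refed IF16 and refed EOD, 5 libraries each). The hour of collection relative to the last meal is not given in the sources used here, so a regimen and the phase of its feeding cycle cannot be told apart.

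During a fast, fat cells release fatty acids, and the liver oxidises them and exports ketone bodies, which the brain can use in place of glucose. Part of this program runs through the peroxisome proliferator-activated receptors (PPARs), nuclear receptors that bind fatty acids and induce genes for lipid handling, mitochondrial oxidation and ketone synthesis. Cholesterol hardly crosses the blood-brain barrier, so the brain makes its own, with enzymes whose genes are induced together by the sterol-regulated transcription factor SREBP2. Feeding times also act on the circadian clock, in which the activators BMAL1, CLOCK and NPAS2 drive their own repressors and the transcription factors DBP, TEF and HLF.

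Total counts were 32188471 to 33505722 per library in IF16 and 26799825 to 36167435 in EOD, and levels below are CPM, the counts of a gene relative to its library's total as scaled by the TMM method. Markers of the labelled tissue were present in every library: the 9 Purkinje cell markers summed to 6810 to 8200 CPM in IF16 and 7280 to 8410 CPM in EOD, and the 8 granule cell markers to 6110 to 7300 and 6340 to 6880 CPM. Some features of the libraries could move with the groups. The choroid plexus, the ventricular tissue that makes cerebrospinal fluid, contributed to the dissections unequally: the mean log2 CPM of its 11 markers was 3.37 ± 1.6 in IF16 and 4.80 ± 0.53 in EOD (SD, n = 5 each; exact permutation p = 0.103, two-sided, smallest possible p 0.00794). The slope of log2 CPM on log2 gene length was -0.00108 ± 0.072 in IF16 and 0.0406 ± 0.063 in EOD (SD, n = 5 each; exact permutation p = 0.349), with IF16 replicate 1 lowest at -0.114 and EOD replicate 4 highest at 0.139. This slope followed the main axis of variation over the 15 libraries with AL (first principal component, 35.1% of the variance; correlation 0.965 in size). EOD replicate 1 held transcripts of liver. Its 9 liver markers summed to 102 CPM, against 0.966 to 2.26 CPM in the other 9 libraries, with 63.4 CPM of Alb against at most 0.0614 CPM. Lastly, EOD replicate 3 had 38.3 CPM summed over 7 pituitary markers against 3.62 to 5.11 CPM in the others.

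No gene passed an adjusted p under 0.05 between EOD and IF16 in edgeR's quasi-likelihood test. The share called was thus 0% of 16577 genes tested, while 600 genes had an unadjusted p under 0.05. Of these, 291 were higher in EOD (1.76% of genes tested) and 309 were lower (1.86%). DESeq2 called 1 gene, with 633 at an unadjusted p under 0.05, and limma-voom called none, with 631. In 52 genes every EOD library was above every IF16 library (0.314%), and in 62 every EOD library was below (0.374%). A random split of 5 against 5 libraries separates them this fully with a probability of 0.00794 over both directions. The 600 genes were 3.62% of those tested, below the 0.05 that this threshold passes where nothing differs. Neither kind of count was thus above the level given by chance. The median size of the log2 fold change was 0.0857, against a median standard error of 0.12, and for 13016 genes (78.5%) the 95% interval lay within 1.5-fold in either direction. The differences between EOD and IF16 described below are therefore values with their 95% intervals on the log2 scale, and each of them had an edgeR adjusted p of at least 0.977. Contrasts with AL come from the same fit and share their libraries with this one. In bulk tissue, more cells of a type and more RNA per cell cannot be told apart. Without EOD replicate 4 the 600 genes became 361, and without IF16 replicate 1 they became 379.

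Several genes of fasting lipid handling were higher in EOD than in IF16. Of 27 PPAR-type fasting lipid genes described here, 25 were tested (Cyp4a14 and Fgf21 were below the filter on low counts). Of the 25, 19 were higher in EOD and 6 lower, with a median log2 fold change of 0.072 against -0.000653 over all genes tested. Compared with AL, 12 of the 25 were higher in EOD (median -0.036) and 10 in IF16 (median -0.0895). The list's median was thus not above the unfasted level in either regimen. Between EOD and IF16, 4 of the 25 had an unadjusted p under 0.05 (16%, against 3.62% of all genes tested): Cpt1a, Angptl4, Lpl and Fabp7. Each of them was higher in EOD. In Cpt1a and Lpl the libraries did not overlap, as in 0.314% of all genes tested.

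**Figure D1:**
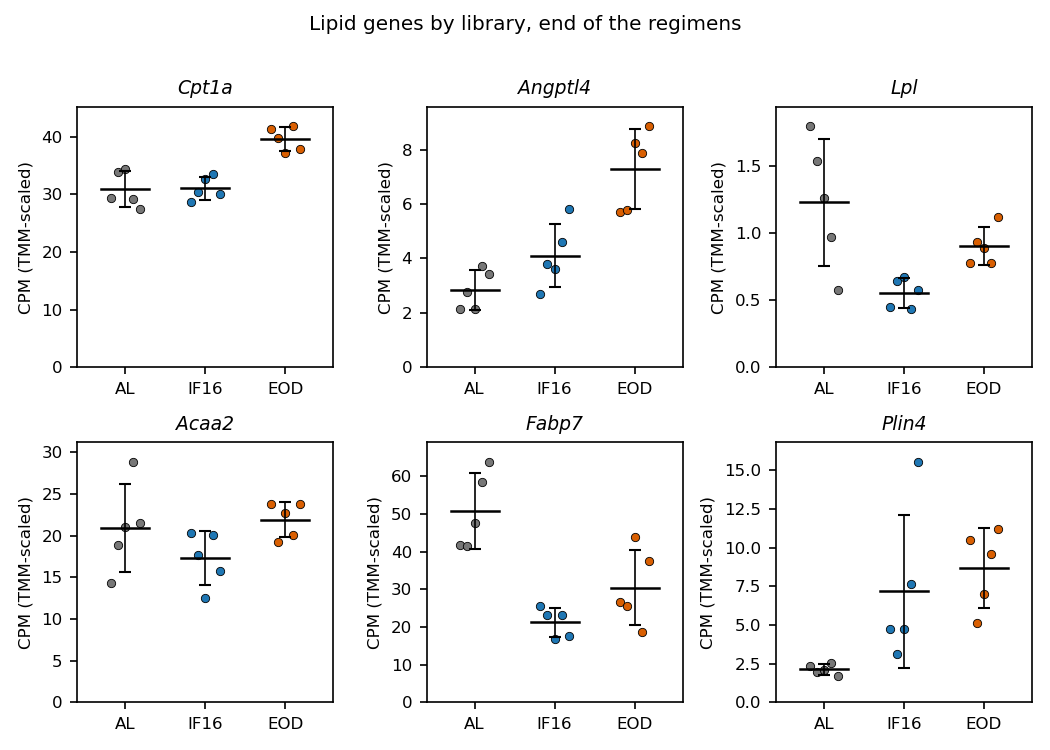
Level of 6 lipid genes (TMM-scaled CPM, linear axes from 0) in each library of AL, IF16 and EOD at the end of the regimens; points are libraries, bars the mean and SD (n = 5). The 5 EOD libraries lie above the 5 IF16 libraries for Cpt1a and Lpl, and the groups overlap for Angptl4, Acaa2, Fabp7 and Plin4.

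Cpt1a, the enzyme that admits long-chain fatty acids to mitochondria and the rate-limiting step of their oxidation (ENSMUSG00000024900, mm10 chr19:3323301-3385732), was at 28.7, 30.4, 32.7, 33.5 and 29.99 CPM in IF16. In EOD it was at 41.3, 39.7, 37.2, 41.8 and 38.0 CPM. The groups did not overlap, and all 5 EOD values were above the AL mean of 30.9 ± 3.13 CPM. The log2 fold change was 0.35 (95% interval 0.19 to 0.51), or 0.33 without EOD replicate 1, which held liver transcripts, and 0.31 with the choroid plexus marker level as a covariate. Against AL the differences were 0.36 in EOD (edgeR adjusted p = 0.121) and 0.0093 in IF16 (adjusted p = 0.968).

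Angptl4, a secreted inhibitor of lipoprotein lipase (ENSMUSG00000002289, mm10 chr17:33773750-33781575), was at 2.70, 3.81, 3.60, 4.60 and 5.80 CPM in IF16 and at 5.71, 5.78, 8.26, 7.87 and 8.86 CPM in EOD. Only IF16 replicate 5 reached into the EOD range. The log2 fold change was 0.83 (95% interval 0.40 to 1.26), or 0.90 without EOD replicate 1. Angptl4 rose in EOD against AL (log2 fold change 1.37, edgeR adjusted p = 0.0233), and in IF16 the difference from AL was 0.53 (adjusted p = 0.441), so its mean was lowest in AL at 2.84 CPM, then 4.10 in IF16 and 7.30 in EOD.

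Lpl, the lipoprotein lipase that Angptl4 inhibits, was expressed at a low level, 0.430 to 0.673 CPM in IF16 and 0.774 to 1.12 CPM in EOD, without overlap (log2 fold change 0.70, interval 0.14 to 1.26). Its AL mean was above both, at 1.23 ± 0.475 CPM. Fabp7, the fatty acid binding protein of astrocytes and Bergmann glia, had a similar order of groups. It was at 50.7 ± 10.1 CPM in AL, fell in IF16 to 21.3 ± 3.84 CPM (log2 fold change -1.25 against AL, edgeR adjusted p = 0.033), and was at 30.5 ± 10.03 CPM in EOD (SD, n = 5 each; -0.73 against AL, adjusted p = 0.217). Between EOD and IF16 it differed by 0.52 (interval 0.096 to 0.94), with overlapping libraries, and by 0.36 with the choroid plexus covariate. By their means, Lpl and Fabp7 were nearer to the AL level in EOD than in IF16, whereas Cpt1a and Angptl4 were farther from it.

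Plin4 and Pdk4 had means above AL in both regimens. Plin4, a coat protein of lipid droplets, rose in EOD against AL (log2 fold change 2.02, edgeR adjusted p = 0.0485). It was at 3.14 to 15.6 CPM in IF16 and 5.11 to 11.2 CPM in EOD, against 2.14 ± 0.345 CPM in AL, and differed between the regimens by 0.28 (95% interval -0.42 to 0.98), a value that ran from 0.0875 without IF16 replicate 2 to 0.775 without IF16 replicate 5, the highest library. Pdk4, the kinase that shuts pyruvate out of oxidation, differed between the regimens by 0.040 (-0.40 to 0.48), with differences from AL of 0.71 in EOD and 0.67 in IF16, neither of which passed the test. Fabp5, another fatty acid binding protein, had the lowest fold change of the list, -0.25 (interval -0.55 to 0.051), which was -0.13 without IF16 replicate 1 and -0.15 without EOD replicate 4.

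The wider oxidation and ketone lists held few such genes. Of 28 genes of fatty acid oxidation, 2 had an unadjusted p under 0.05 (7.14%, against 3.62% of all genes tested), both higher in EOD. They were Cpt1a and Acaa2, the last thiolase of mitochondrial beta-oxidation (17.3 ± 3.25 against 21.9 ± 2.12 CPM, SD, n = 5 each, overlapping; log2 fold change 0.34, interval 0.011 to 0.68). With the choroid plexus level as a covariate the Acaa2 difference was 0.14, and its unadjusted p was under 0.05 in 12 of 20 alternatives. The count of 2 was 1 in 5 of the 10 fits that left out a library. The list's median was 0.019, and for 27 of its 28 members the interval lay within 1.5-fold. Of 8 genes of ketone body use and monocarboxylate transport described here, none had an unadjusted p under 0.05. Oxct1, which activates ketone bodies for oxidation, differed by -0.037 (95% interval -0.16 to 0.082), and Slc16a1, the monocarboxylate transporter MCT1, by 0.20 (-0.0034 to 0.40), or 0.13 without IF16 replicate 5. None of 28 genes of glycolysis and pyruvate entry had an unadjusted p under 0.05, and all 28 intervals lay within 1.5-fold.

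The cholesterol pathway lay on the other side of zero. Of its genes, 18 are described here, which is not the whole pathway. Each of the 18 was tested and had a lower estimate in EOD than in IF16, where 50.2% of all genes tested did. The list's median log2 fold change was -0.16. Of the 18, 6 had an unadjusted p under 0.05 (33.3%, against 3.62% of all genes tested), each of them lower in EOD. In 5 members every EOD library was below every IF16 library (Acat2, Hmgcs1, Pmvk, Cyp51 and Msmo1), as in 0.374% of all genes tested. Members were chosen with earlier results known, so these shares are not a test. The differences were small: the 18 intervals lay within 1.5-fold, and the adjusted p of the members was 0.977 to 0.998 in edgeR's test. The count of 6 came down to 3 without IF16 replicate 1, the library with the lowest length slope of these 10, and was 7 with that slope as a covariate.

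Early in the pathway stands Hmgcs1, the cytosolic enzyme that makes HMG-CoA for sterol synthesis (ENSMUSG00000093930, mm10 chr13:119690462-119708086). It was at 101, 106, 106, 103 and 94.99 CPM in IF16. In EOD it was at 89.2, 92.0, 81.2, 92.9 and 78.2 CPM. The highest EOD value was below the lowest IF16 value (log2 fold change -0.24, 95% interval -0.37 to -0.11). Pmvk, which phosphorylates mevalonate a second time, was at 32.0 to 42.9 CPM in IF16 and 26.9 to 31.1 CPM in EOD (-0.32, interval -0.57 to -0.065).

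In the sterol branch, Fdft1 (squalene synthase) differed by -0.30 (interval -0.55 to -0.046) and Sqle (squalene epoxidase) by -0.18 (-0.37 to -0.0021), both with overlapping libraries. Cyp51, the lanosterol demethylase (ENSMUSG00000001467, mm10 chr5:4081145-4104746), was at 46.7, 46.8, 46.5, 43.9 and 44.8 CPM in IF16 and at 38.3, 39.6, 40.4, 40.4 and 35.3 CPM in EOD. Both groups were narrow and lay apart (log2 fold change -0.24, interval -0.36 to -0.12). Msmo1, a methylsterol oxidase of the same branch (ENSMUSG00000031604, mm10 chr8:64718139-64733792), was at 33.5, 29.3, 33.8, 32.6 and 27.2 CPM in IF16 and at 24.5, 25.3, 26.4, 23.7 and 23.7 CPM in EOD. It had the largest difference of the list (-0.34, interval -0.51 to -0.17), again without overlap. Dhcr7, a late reductase, and Sc5d, the lathosterol desaturase, were nearer to zero (-0.054, interval -0.22 to 0.12, and -0.0026, interval -0.25 to 0.24), and the sign of Sc5d turned under several settings.

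**Figure D2:**
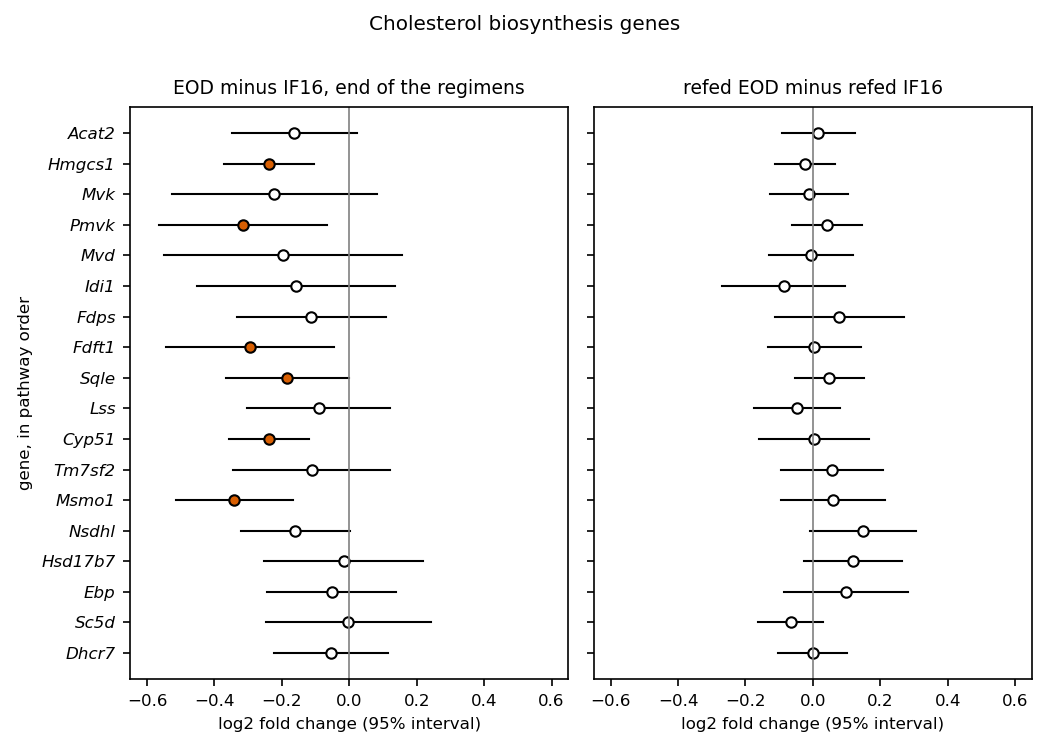
Log2 fold change with its 95% interval for 18 cholesterol biosynthesis genes in pathway order, EOD minus IF16 at the end of the regimens (left) and the same contrast in other mice after refeeding (right); filled points have an unadjusted p under 0.05. On the left the 18 estimates are below 0 and 6 are filled, and on the right 7 are below 0 and none is filled.

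Against AL the same list had a median of 0.043 in IF16 and -0.14 in EOD, contrasts that share their libraries with the one above. Hmgcs1 was 0.15 above AL in IF16 and 0.084 below it in EOD (log2 fold change -0.084), and Cyp51 had the same pair of values (0.15 and -0.084). Msmo1 was at 0.072 and -0.27, and Sqle at -0.13 and -0.31. None of the 18 genes was called in either comparison with AL.

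The promoters of 3 of these genes are shown because SREBP2 acts at sterol response elements together with the factor NF-Y, which binds CCAAT boxes. Each is the 250 bases before a RefSeq gene start (GRCm38.p6), read 5′ to 3′ on the strand of the gene, with matches to TCACNCCAC (a sterol response element, both strands) and CCAAT (both strands) in capitals.
Hmgcs1 (chr13:119690101-119690350, plus strand): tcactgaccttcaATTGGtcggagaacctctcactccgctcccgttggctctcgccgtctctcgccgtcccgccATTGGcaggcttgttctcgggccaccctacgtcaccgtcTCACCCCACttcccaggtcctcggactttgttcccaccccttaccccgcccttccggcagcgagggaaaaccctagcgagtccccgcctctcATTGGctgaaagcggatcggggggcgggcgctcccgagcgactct
Cyp51 (chr5:4104698-4104947, minus strand): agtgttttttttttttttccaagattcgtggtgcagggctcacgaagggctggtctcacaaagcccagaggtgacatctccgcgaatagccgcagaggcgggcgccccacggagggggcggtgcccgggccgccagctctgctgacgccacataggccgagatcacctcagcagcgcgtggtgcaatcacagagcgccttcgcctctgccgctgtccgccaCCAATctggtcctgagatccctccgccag
Msmo1 (chr8:64733579-64733828, minus strand): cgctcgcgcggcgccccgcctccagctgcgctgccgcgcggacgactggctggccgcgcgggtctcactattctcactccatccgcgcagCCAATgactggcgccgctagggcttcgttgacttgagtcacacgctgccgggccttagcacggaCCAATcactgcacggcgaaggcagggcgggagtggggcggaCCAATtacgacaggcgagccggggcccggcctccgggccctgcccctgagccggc
The Hmgcs1 window held 1 match to the sterol element, 137 bases before the start, and 3 CCAAT boxes. The windows of Cyp51 and Msmo1 held 1 and 3 CCAAT boxes and no match to these 9 letters. Of the 15 list members found in the table, 14 had a CCAAT box (93.3%, against 37.5% of 27025 genes) and 1 had the sterol element (6.67%, against 1.22%). A match describes letters in a window and not a bound site.

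Genes that sense, take up or export sterols had a median nearer to zero than the biosynthesis genes. Of 18 described here and tested, 11 were lower and 7 higher in EOD, with a median of -0.013, and none had an unadjusted p under 0.05. Srebf2, which encodes SREBP2, differed by 0.028 (interval -0.11 to 0.17). Insig1, the retention protein of the sterol sensor, differed by -0.067 (-0.21 to 0.076). The lowest fold change was that of Stard4, a sterol carrier protein (-0.091, interval -0.28 to 0.093), and the highest that of Lrp1, a large lipoprotein receptor (0.20, interval -0.028 to 0.43). Lrp1 was at 0.091 without EOD replicate 4, and Stard4 at -0.010 with the choroid plexus covariate. None of 22 genes of fatty acid synthesis and desaturation had an unadjusted p under 0.05, with Scd2 at 0.051 (-0.12 to 0.23) and Fasn at 0.074 (-0.10 to 0.25). The list ran from -0.267 (Mlxipl) to 0.225 (Acacb), and for 20 of the 22 the interval lay within 1.5-fold.

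**Figure D3:**
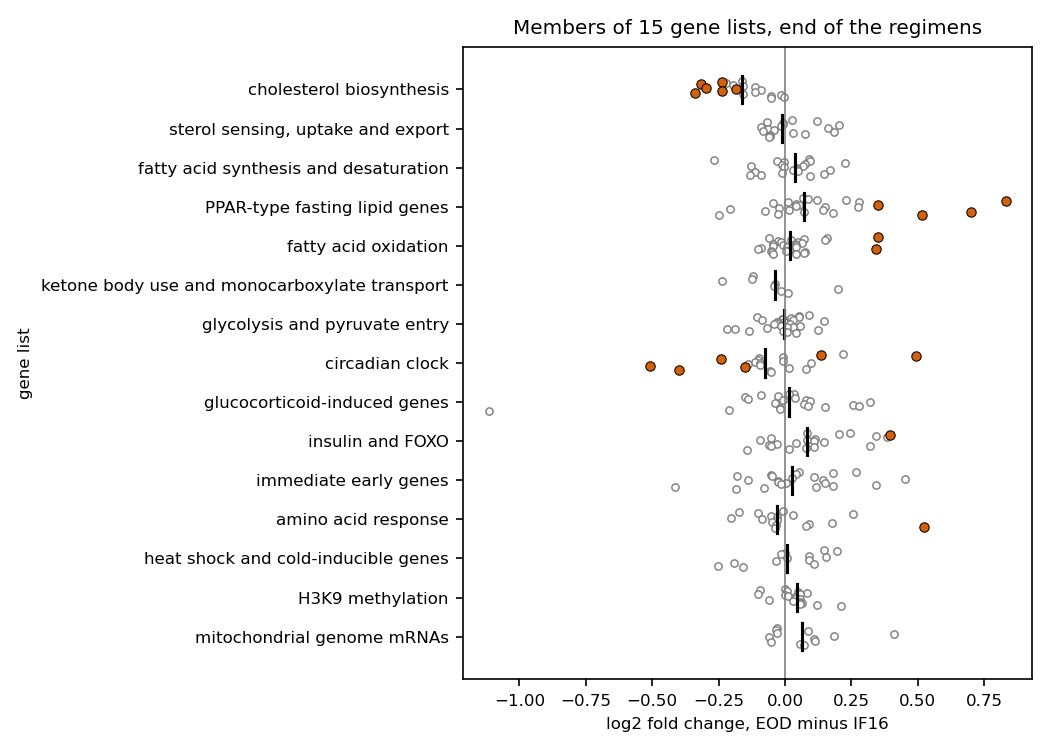
Log2 fold change, EOD minus IF16, of the tested members of 15 gene lists; filled points have an unadjusted p under 0.05 and the vertical bar is the list's median. Cholesterol biosynthesis has the lowest median (-0.16), and the filled points lie to the right for PPAR-type genes and to both sides for the circadian clock.

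The circadian clock list had members on both sides. Of 20 genes tested, 4 had an unadjusted p under 0.05 and were lower in EOD (Dbp, Ciart, Per3 and Tef), and 2 were higher (Npas2 and Arntl). Together they were 30% of the list, against 3.62% of all genes tested. The list's median was -0.074. Members of one role did not all lie on one side: Hlf, an output gene like Dbp and Tef, differed by 0.014 (interval -0.23 to 0.26). Compared with AL, 17 of the 20 genes were higher in IF16 (median 0.251) and 18 in EOD (median 0.184). Both medians were larger in size than the one between the regimens.

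Dbp, a transcription factor that carries clock output to metabolic genes (ENSMUSG00000059824, mm10 chr7:45705088-45710155), was at 87.7, 84.6, 55.8, 55.5 and 61.2 CPM in IF16. In EOD it was at 53.8, 47.4, 43.5, 51.3 and 46.3 CPM. The groups did not overlap, although replicates 1 and 2 of IF16 stood well above the rest (log2 fold change -0.51, interval -0.82 to -0.20). The EOD mean of 48.5 ± 4.11 CPM was close to the AL mean of 48.2 ± 9.87 CPM (SD, n = 5 each; 0.0076 on the log2 scale).

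Ciart, a repressor of the activator complex (ENSMUSG00000038550, mm10 chr3:95878503-95882251), was at 21.4, 21.7, 17.8, 17.1 and 24.0 CPM in IF16 and at 17.3, 14.6, 13.5, 17.1 and 14.8 CPM in EOD. The libraries overlapped at about the lowest IF16 value (-0.40, interval -0.62 to -0.18). Ciart rose in IF16 against AL (0.89, edgeR adjusted p = 0.00174), and in EOD it was 0.49 above AL (adjusted p = 0.158). Per3, a period protein, was at 60.3 to 70.1 CPM in IF16 and 48.6 to 59.9 CPM in EOD, without overlap (-0.24, interval -0.42 to -0.059). Tef, a relative of Dbp, rose against AL in both regimens (0.49 in IF16, adjusted p = 0.00174; 0.34 in EOD, adjusted p = 0.0485), and its log2 fold change between EOD and IF16 was -0.15 (-0.28 to -0.026).

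Among the activators, Npas2 was at 3.13, 4.05, 3.25, 4.54 and 3.997 CPM in IF16 and at 5.49, 4.54, 5.72, 5.30 and 5.65 CPM in EOD, where the nearest libraries of the groups were equal to 3 digits (0.49, interval 0.20 to 0.79). Arntl, which encodes BMAL1, differed by 0.13 (0.0074 to 0.26) with overlapping libraries. The count of 2 higher clock genes was 1 in 8 of the 10 fits that left out a library. Per1 did not share the offset. It rose against AL in both regimens (0.73 in IF16, edgeR adjusted p = 0.0451; 0.72 in EOD, adjusted p = 0.0436), with 182 ± 25.8 CPM in IF16 and 182 ± 27.9 CPM in EOD (SD, n = 5 each; difference -0.0063, interval -0.26 to 0.25). With the choroid plexus level as a covariate, 2 clock genes in place of 4 were lower at an unadjusted p under 0.05.

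**Figure D4:**
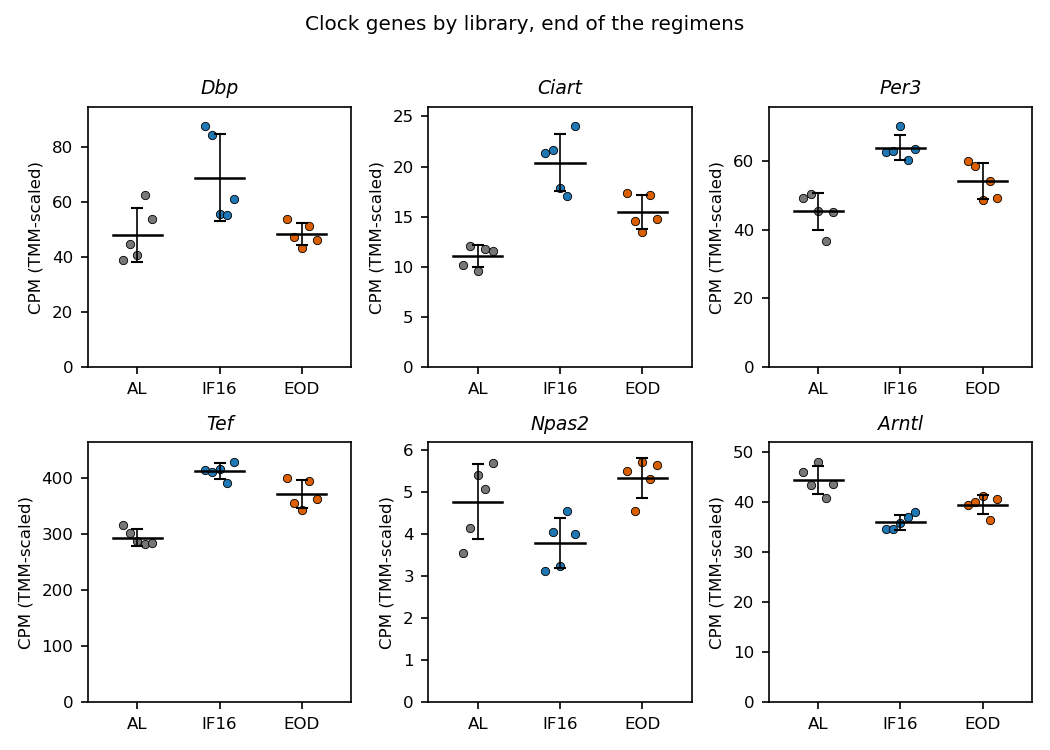
Level of 6 clock genes (TMM-scaled CPM, linear axes from 0) in each library of AL, IF16 and EOD at the end of the regimens; points are libraries, bars the mean and SD (n = 5). Dbp, Ciart, Per3 and Tef have their highest mean in IF16, and Npas2 and Arntl their lowest.

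The promoters of Ciart and Per3 are shown for the E-box (CACGTG), which the activators bind, and the D-box (TTANGTAA), which Dbp and its relatives bind, both searched on both strands of the 250 bases before a RefSeq start (GRCm38.p6). Matches are in capitals.
Ciart (chr3:95882229-95882478, minus strand): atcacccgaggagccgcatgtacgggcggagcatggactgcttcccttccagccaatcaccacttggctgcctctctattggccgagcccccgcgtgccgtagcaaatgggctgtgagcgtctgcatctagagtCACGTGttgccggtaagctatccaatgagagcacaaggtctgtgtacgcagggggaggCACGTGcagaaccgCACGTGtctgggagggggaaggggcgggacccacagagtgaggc
Per3 (chr4:151044666-151044915, minus strand): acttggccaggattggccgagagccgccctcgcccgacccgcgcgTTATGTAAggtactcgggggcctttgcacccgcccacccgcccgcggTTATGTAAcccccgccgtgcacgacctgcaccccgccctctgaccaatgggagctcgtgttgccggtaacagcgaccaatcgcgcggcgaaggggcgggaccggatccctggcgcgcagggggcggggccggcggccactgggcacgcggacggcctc
The Ciart window held 3 E-boxes, 116 to 44 bases before the start, and no D-box. The Per3 window held 2 D-boxes, 205 and 158 bases before the start, and no E-box. Of 17 clock genes found in the table, 5 had an E-box (29.4%, against 6.86% of genes) and 2 a D-box (11.8%, against 2.44%). The E-box was in Bhlhe41, Ciart, Cry1, Per1 and Tef, and the D-box in Per3 and Rorb. Matches were thus not confined to members with an unadjusted p under 0.05 between EOD and IF16.

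Most other lists showed no member at an unadjusted p under 0.05: none of 21 glucocorticoid-induced genes, 23 immediate early genes, 13 heat shock and cold-inducible genes, 20 genes of H3K9 methylation and 12 mitochondrial mRNAs. The spread decided how much this could show. All 20 H3K9 methylation genes had intervals within 1.5-fold, but only 10 of 21 glucocorticoid-induced genes and 11 of 23 immediate early genes did. The glucocorticoid-induced genes had medians of 0.58 (IF16) and 0.71 (EOD) above AL, and 0.015 between the regimens. Cdkn1a, a cell cycle inhibitor, ranged from 30.6 to 87.1 CPM in IF16 and from 42.1 to 104 CPM in EOD.

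Of 17 amino acid response genes, 1 had an unadjusted p under 0.05 (5.88%), and of 21 insulin and FOXO genes, 1 did (4.76%). Both counts are near the share over all genes tested (3.62%). The first was Cebpb, a stress-responsive transcription factor (3.02 ± 0.589 CPM in IF16, 4.33 ± 0.932 CPM in EOD, 4.004 ± 0.687 CPM in AL; SD, n = 5 each; difference 0.52, interval 0.17 to 0.88). The second was the growth factor gene Igf2 (144 ± 38.6 and 189 ± 12.6 CPM, SD, n = 5 each; difference 0.39, interval 0.052 to 0.74). Igf2 is also made by meninges and choroid plexus. The 8 markers of meninges and fibroblasts, Igf2 among them, summed to 229 to 344 CPM in IF16 and 316 to 370 CPM in EOD. Igf2 itself makes up much of that sum, so the sum is not independent of it. By gene, 5 of the 8 were higher and 3 lower in EOD, with a median log2 fold change of 0.039. All 11 choroid plexus markers had a higher mean in EOD (median log2 fold change 0.94, none at an unadjusted p under 0.05). None of these markers was at 0 in all 10 libraries. With the choroid plexus level as a covariate the Igf2 difference was 0.14, and its unadjusted p was under 0.05 in 15 of 20 alternatives. The part of the meninges in it was not tested.

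Outside the lists, genes were picked by the smallest p in each direction in these same libraries. Intervals away from zero and separated libraries therefore repeat that choice and are no separate evidence. Over all genes tested, 0.314% were separated with EOD higher and 0.374% with EOD lower. The genes with the smallest p among those higher in EOD included Kank1, a regulator of the actin cytoskeleton. It was at 23.3, 28.9, 25.0, 28.9 and 26.1 CPM in IF16 and at 31.1, 33.3, 34.1, 42.4 and 36.4 CPM in EOD, without overlap (0.43, interval 0.24 to 0.61). Mmp14, a membrane-bound matrix metalloproteinase, was at 24.6, 29.4, 19.1, 25.4 and 25.7 CPM in IF16 and at 32.7, 32.3, 34.9, 32.9 and 37.4 CPM in EOD, also apart (0.45, interval 0.24 to 0.67). Mmp14 fell in IF16 against AL (-0.65, edgeR adjusted p = 0.0325), and in EOD it was -0.20 from AL (adjusted p = 0.362). The methyl-CpG binding protein gene Mbd2 (0.30) and the transcription factor genes Nr2f1 (0.23) and Pou3f3 (0.36) followed, together with Akirin2 (0.25).

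Among the genes lower in EOD, the beta-tubulin gene Tubb2b was at 175, 162, 133, 143 and 162 CPM in IF16 and at 113, 117, 114, 119 and 117 CPM in EOD (-0.42, interval -0.64 to -0.19), with every EOD library below every IF16 library. Its AL mean was 165 ± 29.97 CPM (SD, n = 5). The linker histone gene Hist1h1c was at 28.6 to 35.8 CPM in IF16 and 20.6 to 25.2 CPM in EOD (-0.41, interval -0.65 to -0.18). It fell in EOD against AL (-0.72, edgeR adjusted p = 0.0233), with an IF16 difference of -0.30 from AL (adjusted p = 0.415). Dph5, an enzyme of diphthamide synthesis, had the smallest p of this group (-0.37, interval -0.55 to -0.18), and Prl2c3, Akr1b8 and Rbm48 differed by -0.48, -0.68 and -0.29. Prl2c3 has near-identical copies that may exchange reads.

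Against AL, 11 genes were called in EOD (0.0664% of genes tested) and 8 in IF16 (0.0483%) by edgeR's test, with the AL libraries in common. Without any 1 library these counts were 2 to 6 and 3 to 10, and DESeq2 called 133 and 94. The calls of single genes against AL were not followed through the alternatives. Etnppl, an astrocyte enzyme that breaks down phosphoethanolamine, rose in both (0.60 in EOD and 0.50 in IF16). It was at 92.4 ± 4.60 CPM in AL, 130 ± 4.38 CPM in IF16 and 140 ± 5.63 CPM in EOD, and the step between the regimens was 0.11 (SE 0.0537, interval -0.0081 to 0.22). Apold1, an endothelial early response gene, rose in EOD against AL (1.58, adjusted p = 0.0357) and was 1.46 above AL in IF16 (adjusted p = 0.0519), with 0.12 between the regimens (-0.40 to 0.64). A call in one comparison with AL and not in the other is no test of the regimens against each other, for which the direct contrast is given throughout.

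After refeeding, the difference between the former regimens was measured in other mice. The choroid plexus level differed here as well. All 11 of its markers were higher in refed EOD than in refed IF16 (median log2 fold change 1.16, none at an unadjusted p under 0.05). In refed EOD against refed IF16, 820 genes were higher at an unadjusted p under 0.05 (4.99% of 16444 tested) and 783 lower (4.76%), and edgeR called 3, none of them in the lists above (0 to 71 without any 1 library, 123 with DESeq2). Cpt1a differed by -0.031 (-0.14 to 0.082) and Angptl4 by 0.056 (-0.36 to 0.47). Of 25 genes tested in the PPAR-type list, 3 were higher and none lower at an unadjusted p under 0.05. Of 28 fatty acid oxidation genes, 3 were higher and none lower. Of 18 genes of sterol sensing, uptake and export, 1 was higher and 3 were lower. Of the 18 cholesterol genes, 7 were lower and 11 higher in refed EOD, with a median of 0.010, and none had an unadjusted p under 0.05. No clock gene did, and Dbp differed by 0.021.

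Whether the difference between the regimens changed with refeeding was tested directly over all 30 libraries. The interaction called no gene in edgeR or DESeq2, with 1414 and 1460 genes at an unadjusted p under 0.05. For Cpt1a the difference of the differences was 0.39 (0.20 to 0.58), for Msmo1 -0.39 (-0.62 to -0.16) and for Dbp -0.52 (-0.89 to -0.16), with edgeR adjusted p of 0.541 to 0.542. These genes were picked for their difference between EOD and IF16, which is part of this contrast. Intervals away from zero therefore repeat that choice and are no separate evidence of a change with refeeding. Age at collection also differs between the sets, 6 and 8 months, and cannot be told apart from refeeding.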

How the data were processed

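RNA-seq of mouse cerebellum was analysed in 30 libraries of 6 groups, of which the 5 EOD and 5 IF16 libraries are compared here. Raw counts were deposited by the authors as whole numbers for 35275 genes, in separate tables for the regimens and for refeeding. Per the submitters' processing notes, STAR 2.5, HTSeq 0.6.1, DESeq2 and the mm10 build were used, and the handling of strand and the annotation release are not given in the sources used here, so overlapping, antisense or near-identical genes may exchange reads. The deposited FPKM tables and the chromatin samples were not used here.

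The count test was edgeR's quasi-likelihood F test (edgeR 4.0.16, R 4.3.3) with TMM scaling and the filterByExpr filter. AL, IF16 and EOD entered a first fit of 15 libraries (16577 genes). The 15 refed libraries had a fit of their own (16444 genes), as did all 30 together (16877 genes). Benjamini-Hochberg adjustment ran over all genes tested. Biological variation between libraries in the first fit came to a coefficient of 14.3%. Each library is taken as one mouse. The edgeR p-values set the difference between groups against the spread between libraries within groups. That spread was pooled over the groups of a fit and moderated across genes. Pairs of libraries of a group differed by 8.52 to 135 in chi-square per degree of freedom, so none was a repeat of another. Replicate numbers did not pair the libraries: same-numbered EOD and IF16 libraries had correlations of -0.176 to 0.0534 in their deviations from the group means.

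Gene lists (15, with 293 distinct genes, and 14 of markers) and the members were chosen with earlier results of these data known, so lists are described by counts and medians and not tested. A few genes are not reported here, left out without regard to their values, and the lists are counted without them, while tests, adjustments and counts over all genes include them. Named genes were the 10 with the smallest p in each direction (at least 1 CPM in one group, no predicted genes or pseudogenes), list members with an unadjusted p under 0.05 or the extreme fold changes of a list, and genes called against AL; other list members are named for their role. Alternatives were DESeq2 1.42.0, limma-voom (limma 3.58.1), DESeq2 size factors, other filters, the 10 libraries alone, replicate blocks, covariates for gene length slope and choroid plexus, and leaving out each library.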

Additional observations from a re-analysis of the deposited data

Results flagged for a closer look

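Each gene named by the rule given under processing (not those named for their role) was checked in EOD and in IF16 for a library standing apart from the other four, with Dixon's criterion, as were the length slope and the choroid plexus level of the libraries. Of 128 such groups of 5, 3 were marked, where chance marks about 1 in 20 groups, or 6.4 here. Lcn2, which encodes lipocalin 2, was at 3.546 CPM in IF16 replicate 5, and the nearest other IF16 library was at 0.700 CPM. The linker histone gene Hist1h1c was at 35.81 CPM in IF16 replicate 1, with the next library at 30.4 CPM. Akirin2 was at 93.95 CPM in EOD replicate 5, with the next library at 89.6 CPM.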

How the results depend on the processing

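Between EOD and IF16, 0 genes were called in the reported fit and in 16 of the 20 alternatives, and 1 gene was called under DESeq2, with the length slope as a covariate, without a filter on low counts, and in the 10 libraries alone. The number of genes at an unadjusted p under 0.05 ran from 300 to 1092. With the replicate block, 0 genes were called between EOD and IF16. The 11 genes called in EOD against AL became 18 with the choroid plexus covariate, 133 with DESeq2, 7 with DESeq2 size factors, 7 with the length slope, 4 with the replicate block and 2 to 6 without one library. The 8 genes of IF16 against AL became 3 (choroid plexus), 94 (DESeq2), 62 (length slope), 5 (replicate block) and 3 to 10 without one library. The 3 genes of refed EOD against refed IF16 became 123 (DESeq2), 0 (length slope), 6 (no filter), 40 (replicate block) and 0 to 71 without one library. The 6 cholesterol genes with a lower level became 3 without IF16 replicate 1 and EOD replicate 4 together, a setting chosen after seeing the data, and 3 to 7 without one library. The 4 lower clock genes became 2 with the choroid plexus covariate, and the 2 higher ones became 1 without a filter, 1 with the replicate block, and 1 to 2 without one library. Some signs turned. Apold1 was at -0.0328 to 0.279 without one library and -0.157 without both libraries named above. Sc5d was at -0.0616 to 0.0441 without one library and 0.074 with the choroid plexus covariate. Eci1 was at 0.00293 with the length slope and 0.0238 without both, and mt-Nd6 at 0.0462 without both. Per1 was at -0.0954 to 0.0574 without one library and 0.0777 with the choroid plexus covariate. Lcn2, at -1.11 in the reported fit, was at -1.51 to 0.0776 without one library, the latter without IF16 replicate 5. Pmvk and Fdft1 came nearer to zero with the length slope, at -0.205 and -0.194. The cause was not tested. At levels under 1 CPM, as for Lpl in IF16, few reads lie behind a value, and counting error was not separated from the spread between mice.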
